A study of Mus musculus with 4 samples.

Results

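Immediate early growth response genes are the first to be transcribed when a quiescent or arrested fibroblast receives growth factors. Signals through Ras, Raf and the ERK kinases act on transcription factors such as Elk1 and Srf. These switch on a set of genes that needs no new protein synthesis. Most of the products are short-lived transcription factors. Fos and Jun proteins pair through leucine zippers to form AP-1, Egr1 is a zinc finger activator, and Myc pairs with Max to drive genes of growth and ribosome production. Their RNA is known to rise and decay within hours of stimulation, so its level depends on the time of sampling.

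The set examined here was fixed by name as Fos, Fosb, Fosl1, Jun, Junb, Egr1, Ier2, Ier3, Atf3 and Myc, and every table row with 1 of these 10 symbols was used. Rows were found for 9 genes (11 rows in all), while no row carried the symbol Fosl1, which was not analysed here. A detection p-value below 0.01, the measure of signal above an array's negative controls, was reached by 8 of the genes, each of them on all 4 arrays. In the whole experiment 12616 genes were detected on at least 1 array. Signal of Ier2, which encodes a nuclear protein rapidly induced by serum, was not above background on any array, so nothing can be said of its level.

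Mouse embryonic fibroblasts (MEFs) of mixed FVB and 129 background, all derived from mice with a floxed Rb gene, were compared in 4 states with 1 array each. Parental MEFs received the carrier solution without TAT-Cre and medium without virus. Rb-deleted MEFs received TAT-Cre, a cell-permeable recombinase, in 2 treatments of 1 hr, and medium without virus. MEFs with WT Rb-HA or with ΔCdk Rb-HA received TAT-Cre together with a retrovirus for wild-type Rb or for an Rb that Cdks cannot phosphorylate. All cells were contact arrested in serum, released for 4 hr by replating, and given the DNA-damaging drug doxorubicin at 100 ng/ml for 3 hr. The array labels do not mention this arrest, release and drug, which are taken from the study's text. No virus without Rb and no cells without release or without drug were among the arrays, so virus and re-expressed Rb cannot be told apart, and the response to release or drug itself was not measured. TAT-Cre was given to every group with deleted Rb and not to parental MEFs, so in ratios to parental TAT-Cre and Rb deletion cannot be told apart.

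Values are bead-averaged probe intensities, and ratios are log2 differences after background correction and quantile normalization. The error given with a ratio is the bead standard error of the 2 arrays combined, which leaves out variation between cultures. Each condition had 1 array, so ratios lack a replicate check and could not be tested. The fold filter was 1.6, a log2 ratio of 0.68. The 3 ratios to parental share the parental array, and all 6 pairwise ratios come from the same 4 arrays. Between 15950 and 16740 probes were detected per array. The deleted gene, Rb1, had log2 ratios to parental of -1.88 with Rb deleted, -1.69 with WT Rb-HA and -1.75 with ΔCdk Rb-HA, with bead standard errors up to 0.08. Compared to Rb-deleted MEFs the Rb1 signal was at 0.19 (0.08) with WT Rb-HA and 0.13 (0.08) with ΔCdk Rb-HA. The Rb1 probes, at positions 4421 and 4002, lie past the coding part of the transcript, and whether viral RNA holds these positions is not given in the sources used here. The arrays therefore do not show the re-expression, and the names of both virus-infected arrays rest on the labels. Of the fibroblast markers all 12 were detected on every array, and the widest of them, Postn, Col3a1 and Pdgfrb, were at -1.26, -0.98 and -0.65 in ΔCdk Rb-HA MEFs compared to parental.

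The probe on which the Myc result rests lies at position 1210 of the reference transcript, in its coding part, on chromosome 15. It is shown because the other Myc probe, at position 2225, gave no signal above background on any array. Promoter sequences of Fos and Jun, whose products form the classical AP-1 pair, are shown in the sense direction for the 250 bases before the annotated start. They come from RefSeq (GRCm38.p6), at chr12:85473640-85473889 on the plus strand and chr4:95052223-95052472 on the minus strand. Capitals mark TATAAA and GGGCGG, the latter read here as its complement on the other strand.

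Myc probe: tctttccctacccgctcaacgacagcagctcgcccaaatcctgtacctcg

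Fos promoter: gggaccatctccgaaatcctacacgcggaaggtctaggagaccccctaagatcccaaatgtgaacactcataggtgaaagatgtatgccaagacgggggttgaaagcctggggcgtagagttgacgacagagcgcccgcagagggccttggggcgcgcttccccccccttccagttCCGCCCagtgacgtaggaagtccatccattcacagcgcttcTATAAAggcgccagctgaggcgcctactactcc

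Jun promoter: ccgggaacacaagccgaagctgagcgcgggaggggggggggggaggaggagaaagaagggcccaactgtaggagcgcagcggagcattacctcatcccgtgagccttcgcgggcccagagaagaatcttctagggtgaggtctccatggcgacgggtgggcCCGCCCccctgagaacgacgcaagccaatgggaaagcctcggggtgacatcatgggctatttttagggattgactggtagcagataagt

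Promoters of 6 of the genes (Fos, Fosb, Jun, Junb, Ier3 and Atf3) were in the RefSeq table and were searched on both strands. GGGCGG, the core of an Sp1 site, was present in 5 of the 6, all but Junb, compared to 32.7% of 32851 promoters of the same length. TATAAA was found only for Fos, compared to 12.4% of all promoters. The CArG box bound by Srf, the CRE TGACGTCA, the AP-1 site TGANTCA, the E-box CACGTG and the E2F sites TTTGGCGC, TTTCCCGC and TTTCGCGC were in none of the 6 windows. Among all promoters these occurred in 1.47%, 1.55%, 6.75%, 6.02% and 1.53% in that order, the E2F sites being counted as one motif. A match or its absence describes only the letters in this window.

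None of the 8 detected genes passed 1.6-fold in any of the 6 comparisons, in either direction. In the same comparisons up to 3.3% of all genes analysed passed the filter in 1 direction, and a share of 0 among 8 genes is near that background. Compared to parental, 2.14% of all genes were higher and 2.98% lower in Rb-deleted MEFs, 0.888% higher and 2.46% lower in WT Rb-HA MEFs, and 2.58% higher and 3.3% lower in ΔCdk Rb-HA MEFs. Compared to Rb-deleted MEFs, 0.539% were higher and 0.484% lower in WT Rb-HA MEFs, and 2.31% higher and 1.95% lower in ΔCdk Rb-HA MEFs. For ΔCdk Rb-HA relative to WT Rb-HA these shares were 0.84% and 1.01%.

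Differences among the immediate early genes were of the size found for genes in general. From the lowest to the highest of the 4 arrays, normalized expression spanned a median of 0.30 on the log2 scale over the 8 genes (1.23-fold) and 0.36 over all genes (1.28-fold). The narrowest span was that of Junb, 0.05, and the widest that of Myc, 0.63. The median log2 ratio to parental over the 8 genes was -0.15 with Rb deleted, 0.02 with WT Rb-HA and -0.19 with ΔCdk Rb-HA, beside 0.02, 0.01 and -0.01 over all genes. A ratio to parental larger than 2 bead standard errors was found for 3, 3 and 5 of the 8 genes, and for 51.2%, 46.8% and 53.3% of all genes.

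**Figure D1:**
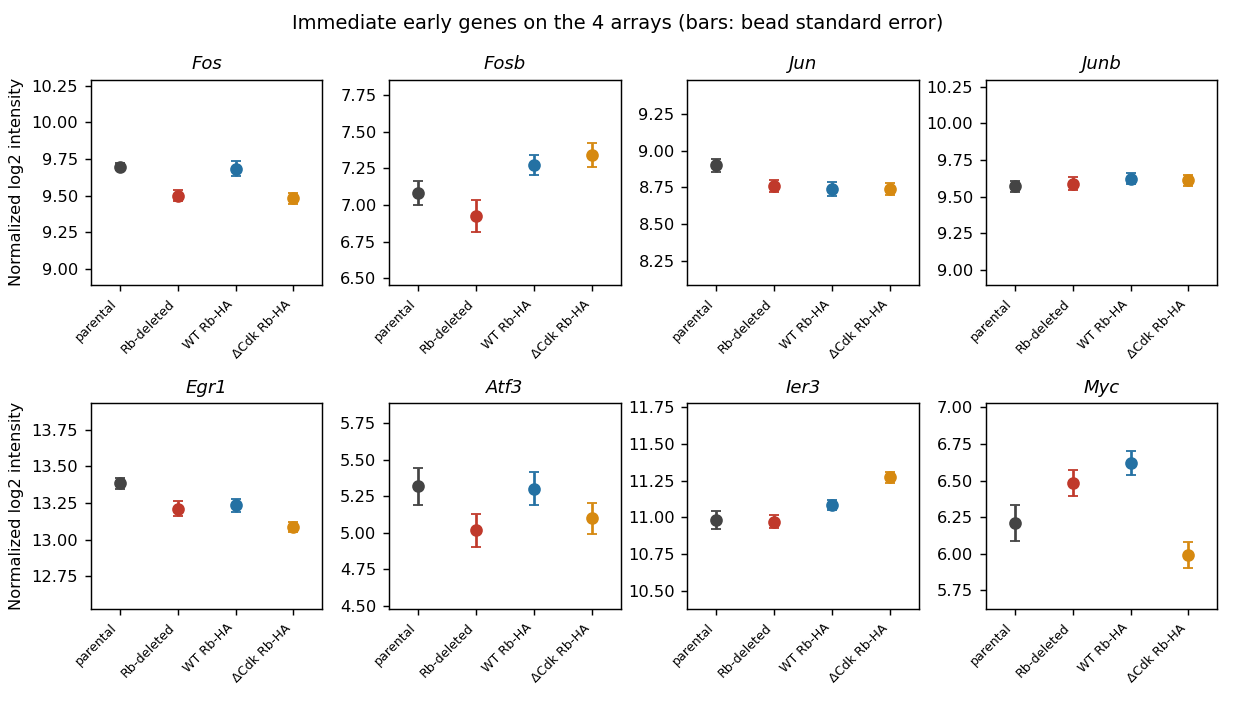
Normalized log2 intensity (vertical axis) of the 8 detected immediate early genes on the 4 arrays, named on the horizontal axis, with the bead standard error as bars and the same span of values in every panel. Junb is flat with a range of 0.05, Egr1 is highest on the parental array, and Myc covers the widest range, 0.63.

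The Fos family gave the first pair of AP-1 subunits. Intensity of Fos (chromosome 12), the subunit that forms AP-1 with Jun, was 883 on the parental, 747 on the Rb-deleted, 848 on the WT Rb-HA and 715.5 on the ΔCdk Rb-HA array. Parental and WT Rb-HA MEFs were at the higher level and the other arrays at the lower. Relative to parental, log2 Fos was -0.20 with Rb deleted (bead standard error 0.04, as in all brackets after a ratio), -0.01 with WT Rb-HA (0.05) and -0.22 with ΔCdk Rb-HA (0.04). Relative to the Rb-deleted level, Fos was at 0.18 with WT Rb-HA (0.06) and at -0.02 with ΔCdk Rb-HA (0.05). These differences amount to at most 1.16-fold.

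Fosb (chromosome 7) encodes a second Fos-type partner of Jun. Its intensity was 162 on the parental, 145 on the Rb-deleted, 180.0 on the WT Rb-HA and 182 on the ΔCdk Rb-HA array. Both arrays from virus-infected cells were above both arrays from uninfected cells. Compared to Rb-deleted MEFs, its log2 ratio was 0.35 in WT Rb-HA (0.13) and 0.42 in ΔCdk Rb-HA MEFs (0.14), the largest of its ratios at 1.33-fold. The virus-infected arrays differed by 0.07 (0.11), less than the bead error.

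Jun (chromosome 4) encodes the AP-1 subunit that can also pair with itself. Its intensity was 517 on the parental, 460.0 on the Rb-deleted, 451 on the WT Rb-HA and 438 on the ΔCdk Rb-HA array. Parental MEFs had the highest value, and the other 3 lay within 0.02 of each other on the normalized log2 scale. The log2 ratios to parental were -0.14 (0.06), -0.16 (0.06) and -0.16 (0.06), each a little over 2 bead standard errors and at most 1.12-fold.

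Junb (chromosome 8) encodes a weaker activator that competes with Jun for Fos proteins. Its probe at position 1497 had intensities of 817 on the parental, 794.5 on the Rb-deleted, 811 on the WT Rb-HA and 779 on the ΔCdk Rb-HA array. No pair of arrays differed by more than the bead error, and the largest fold between any 2 arrays was 1.04. All 3 of its ratios to parental lay between 0.02 and 0.05, but with median scaling in place of quantile normalization they turned negative. A second Junb probe, at position 2971, had intensities of 39.4 to 46.1 and was not above background on any array.

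Egr1, the zinc finger factor of the Egr family on chromosome 18, had an intensity of 11173 on the parental, 9422 on the Rb-deleted, 9878 on the WT Rb-HA and 8745 on the ΔCdk Rb-HA array. Parental MEFs were the highest and ΔCdk Rb-HA MEFs the lowest. Relative to parental it was at -0.17 with Rb deleted (0.06), -0.15 with WT Rb-HA (0.06) and -0.30 with ΔCdk Rb-HA (0.05), the last equal to 1.23-fold. Compared to Rb-deleted MEFs, Egr1 was at 0.02 in WT Rb-HA (0.07) and -0.12 in ΔCdk Rb-HA MEFs (0.06). Fos, Jun and Egr1 thus each had negative ratios to parental on each of the 3 TAT-Cre-treated arrays, with that of Fos in WT Rb-HA MEFs inside its bead error.

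Atf3 (chromosome 1) encodes a stress-induced factor that belongs to the ATF/CREB family and can pair with Jun. Its signal lay close to background, with intensities of 64.1 on the parental, 55.7 on the Rb-deleted, 64.7 on the WT Rb-HA and 58.3 on the ΔCdk Rb-HA array, while probes without signal lay near 36. Parental and WT Rb-HA arrays were again the higher ones. Its log2 ratios to parental were -0.30 (0.17), -0.02 (0.17) and -0.22 (0.16), all within 2 bead standard errors. Changes of the true RNA level are understated this close to background, because an offset of 16 is added to every value before the logarithm.

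Ier3 (chromosome 17) encodes a short-lived protein linked to survival and to ERK signalling. Its intensity was 2118 on the parental, 2014 on the Rb-deleted, 2190 on the WT Rb-HA and 2463 on the ΔCdk Rb-HA array. ΔCdk Rb-HA MEFs were highest, with a log2 ratio of 0.29 to parental (0.07), 0.30 to Rb-deleted (0.06) and 0.19 to WT Rb-HA MEFs (0.05). Parental and Rb-deleted MEFs differed by -0.01 (0.07). Ier3 and Fosb were the detected genes for which ΔCdk Rb-HA was the highest array.

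Myc, the growth-promoting factor, showed the widest span. The probe printed above had intensities of 98.6 on the parental, 113 on the Rb-deleted, 123 on the WT Rb-HA and 87.5 on the ΔCdk Rb-HA array. Rb-deleted and WT Rb-HA MEFs were the high arrays, and ΔCdk Rb-HA MEFs the lowest. Relative to parental, Myc was at 0.27 with Rb deleted (0.15), 0.41 with WT Rb-HA (0.15) and -0.22 with ΔCdk Rb-HA (0.15). Set against WT Rb-HA, the ΔCdk Rb-HA value was -0.63 (0.12), or 1.54-fold lower, the value nearest to the filter among all ratios of the 8 genes. Compared to Rb-deleted MEFs, Myc was at -0.49 in ΔCdk Rb-HA (0.13) and 0.14 in WT Rb-HA MEFs (0.12). Of all genes analysed 85.8% had a smaller span over the 4 arrays than Myc. The undetected Myc probe had intensities of 30.4 to 33.9.

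**Figure D2:**
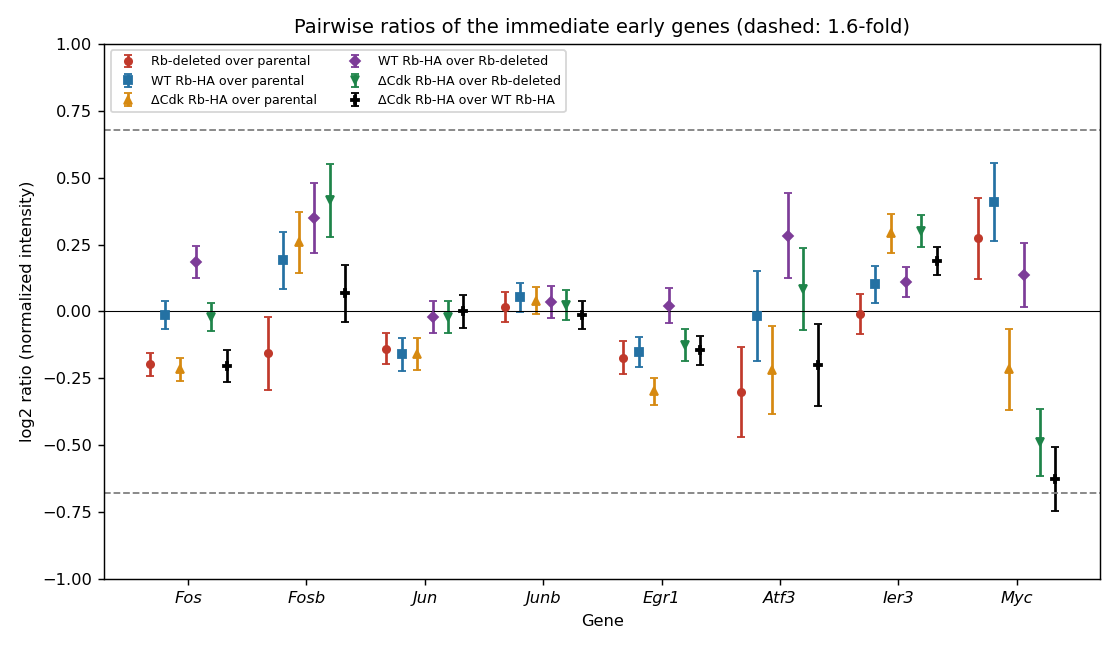
Log2 ratios (vertical axis) of the 8 genes (horizontal axis) in the 6 pairwise comparisons of the 4 arrays, with bars for the bead standard error and dashed lines at 1.6-fold (0.68). All points lie between the dashed lines, and the lowest is Myc in ΔCdk Rb-HA compared to WT Rb-HA MEFs at -0.63, whose bar crosses the line.

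Other genes with a course over the 4 arrays like that of Myc were 2510002A14Rik, St3gal1 and Zfp651. Their mean-centred log2 values differed from those of Myc by a root mean square of 0.03 over the 4 arrays. The ratio of St3gal1 to parental, for example, was 0.24, 0.34 and -0.23 with Rb deleted, with WT Rb-HA and with ΔCdk Rb-HA. Closest to Fosb, the next widest gene, were Cpne8, Foxc1 and Pm20d1, at 0.01 each. With 4 arrays and 12616 genes, such likeness is a description only.

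A wider list of immediate early genes had 37 detected members, and 0 of them rose past 1.6-fold compared to parental on any array. Lower than parental by more than the filter were 2 genes in Rb-deleted, 1 in WT Rb-HA and 4 in ΔCdk Rb-HA MEFs. With median scaling in place of quantile normalization the WT Rb-HA count was 5. For all genes the shares lower past the filter were 2.98%, 2.46% and 3.3%. Tnfaip3, a brake on NF-κB signalling, was lower past the filter on all 3 arrays. Its intensity was 300.0 on the parental, 133 on the Rb-deleted, 166 on the WT Rb-HA and 141 on the ΔCdk Rb-HA array, with log2 ratios of -1.30 (0.09), -0.93 (0.09) and -1.17 (0.08). Ptgs2, the inducible cyclooxygenase, was lower in Rb-deleted MEFs at -1.12 (0.13), and was at -0.64 (0.14) in WT Rb-HA and -0.34 (0.14) in ΔCdk Rb-HA MEFs. The other genes below the filter in ΔCdk Rb-HA MEFs were Irf1, an interferon-induced factor, at -0.79 (0.06), Zfp36, which destabilises cytokine mRNA, at -0.73 (0.05), and Nfkbia, the NF-κB inhibitor, at -0.70 (0.07).

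Below 0 relative to parental were 27, 27 and 32 of the 37 genes with Rb deleted, with WT Rb-HA and with ΔCdk Rb-HA, with median log2 ratios of -0.23, -0.28 and -0.22. Among all genes 52.4%, 51.3% and 48.9% were above 0. Between the TAT-Cre-treated arrays the medians were closer to 0, at -0.02 for WT Rb-HA and -0.12 for ΔCdk Rb-HA compared to Rb-deleted MEFs. In the latter comparison Ptgs2 was higher, at 0.78 (0.12), and was the only one of the 37 past the filter between treated arrays. Of all genes 2.31% were higher past the filter there.

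Markers of macrophages and other leukocytes moved with these ratios. All 15 detected marker symbols were below parental on the 3 treated arrays, and 12, 15 and 12 of them passed 1.6-fold. The shares of all genes lower past the filter were 2.98%, 2.46% and 3.3%. Summed intensity of the list was 12030.8 on the parental array and 5801.2 to 7275.9 on the others. Those widest in range were Emr1, C1qb and Laptm5, while 4 of the 19 marker symbols in the table were not detected. Emr1, a macrophage surface receptor, had intensities of 773, 247, 203 and 197.5 in the order of the arrays above. Lyz, Lyz2 and Lyzs are 3 symbols of 2 near-identical lysozyme genes, Lyzs being an older name of Lyz2, and may share signal. Without them 10, 12 and 12 of 12 markers were lower past the filter, a count added after the values were seen. Both sets of counts include markers not above background, as 13 of the 15 were detected with WT Rb-HA and 14 with ΔCdk Rb-HA. C1qa was undetected on both arrays and was at least 1.47- and 1.54-fold lower there, bounds inside the filter. Mrc1 was undetected with WT Rb-HA and at least 2.62-fold lower. Macrophages also express many immediate early and NF-κB response genes, and the part of these cells in the ratios to parental was not tested. In bulk RNA, fewer cells of a type and less RNA per cell cannot be told apart. None of 5 endothelial markers was detected, and 4 epithelial markers were, at a summed intensity of 267 to 316, the widest being Krt19, Krt18 and Cdh1.

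Feedback inhibitors of ERK signalling, the Dusp phosphatases and Sprouty and Spred proteins, were more often below parental than above. Below 0 were 7, 10 and 9 of the 12 detected genes with Rb deleted, with WT Rb-HA and with ΔCdk Rb-HA. Their median log2 ratios were -0.13, -0.29 and -0.20. Among all genes 52.4%, 51.3% and 48.9% were above 0 on these arrays, so 7 of 12 below 0 is near the general share. Of the 12 genes 1 was lower than parental by more than the filter in Rb-deleted, 0 in WT Rb-HA and 1 in ΔCdk Rb-HA MEFs, and 0 were higher. Among all genes the lower shares were 2.98%, 2.46% and 3.3%. The gene lower past the filter was Dusp2, a nuclear phosphatase of ERK that is abundant in leukocytes, at -0.72 (0.17) in Rb-deleted MEFs. It fell inside the filter on both arrays without background correction or with an offset of 50, on the Rb-deleted array also with the mean of detected probes, and was not kept where detection on all 4 arrays was required. On the ΔCdk Rb-HA array it was not above background and was at least 1.71-fold lower than parental, set against the higher of its own value and the lowest detected value there. Dusp10 was at -0.58 (0.10) and Spry4 at 0.41 (0.21) in ΔCdk Rb-HA MEFs compared to parental.

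Upstream, 25 of 27 genes from growth factor receptors to Elk and Mkl factors were detected. Relative to parental, 1 of the 25 was lower past the filter with Rb deleted, beside 2.98% of all genes, and 0 were with WT Rb-HA or with ΔCdk Rb-HA, while 0 were higher. Map2k1, the kinase that activates ERK, was lower in Rb-deleted MEFs at -0.72 (0.09), and at -0.55 (0.10) and -0.36 (0.09) with WT Rb-HA and with ΔCdk Rb-HA. Pdgfrb, the PDGF receptor beta of fibroblasts, had intensities of 368 on the parental, 435 on the Rb-deleted, 366 on the WT Rb-HA and 231 on the ΔCdk Rb-HA array. It was lower with ΔCdk Rb-HA than with Rb deleted by -0.95 (0.10) and than in WT Rb-HA MEFs by -0.70 (0.10). Mapk3, or ERK1, was at 0.64 (0.20) in ΔCdk Rb-HA MEFs compared to parental, inside the filter.

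Partners of the AP-1 proteins ranged from -0.66 to 0.96 over the 6 comparisons. None of the 9 detected partner genes passed 1.6-fold relative to parental. That count is near the background, since 0.888% to 3.3% of all genes passed in 1 direction. Below 0 were 8, 8 and 6 of the partner genes with Rb deleted, with WT Rb-HA and with ΔCdk Rb-HA, at medians of -0.17, -0.22 and -0.09. Among all genes 52.4%, 51.3% and 48.9% were above 0, and these ratios share the parental array. Nfe2l2, or Nrf2, the antioxidant response factor, was higher with ΔCdk Rb-HA than with Rb deleted, at 0.96 (0.13). Its intensities were 263 on the parental, 173 on the Rb-deleted, 222 on the WT Rb-HA and 306.5 on the ΔCdk Rb-HA array. Mafk, a small Maf protein, was at -0.66 (0.15) in ΔCdk Rb-HA MEFs compared to parental, and Atf7 at 0.27 (0.15) in WT Rb-HA MEFs.

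Textbook AP-1 target genes spread more widely than AP-1 subunits did. The targets are the longer list, which can reach wider by number alone. Of 14 detected targets 6 were more than 1.6-fold lower than parental in Rb-deleted MEFs, 1 with WT Rb-HA (Mmp13, at -0.74) and 1 with ΔCdk Rb-HA (Mmp9, at -0.90), and 0 were higher. With WT Rb-HA the count was 3 with median scaling and 0 with the mean of detected probes. Of all genes 2.98%, 2.46% and 3.3% were lower past the filter on these arrays, and 1 gene among 14 is near that background. Median log2 ratios of the list were -0.60, -0.23 and -0.06, beside the values near 0 for all genes given above. The 6 genes were the matrix metalloproteinases Mmp3, Mmp10 and Mmp13, the plasminogen activator Plau, the angiogenic factor Vegfa and the matrix protein osteopontin, Spp1. Mmp3 exceeded the filter narrowly, at -0.68. Macrophages also express Spp1 and Mmp9. With Rb deleted, with WT Rb-HA and with ΔCdk Rb-HA, Spp1 was at -0.89, -0.63 and 0.47 relative to parental. Mmp9 was at -0.07, -0.08 and -0.90, and the macrophage markers had medians of -0.96, -1.18 and -1.05. A part of these cells in the ratios was not tested.

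The 3 widest of these genes, chosen by their range on these arrays, followed one order over the TAT-Cre-treated arrays. Mmp13, a collagenase, had intensities of 7891 on the parental, 3582 on the Rb-deleted, 4710.2 on the WT Rb-HA and 6989 on the ΔCdk Rb-HA array. Mmp10 had intensities of 1365 on the parental, 683 on the Rb-deleted, 1168 on the WT Rb-HA and 1957 on the ΔCdk Rb-HA array. Spp1 had intensities of 7486, 3914, 4826 and 9875 on the same arrays. Each was lowest in Rb-deleted MEFs, intermediate in WT Rb-HA MEFs and higher in ΔCdk Rb-HA MEFs. There Mmp10 and Spp1 were above parental and Mmp13 below it. Mmp9, Tgfb1 and Cd44 of the same list were instead lowest in ΔCdk Rb-HA MEFs.

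Compared to Rb-deleted MEFs, 5 of the 14 targets were higher past 1.6-fold in ΔCdk Rb-HA MEFs and 2 lower. In WT Rb-HA MEFs only Mmp10 was higher past the filter, at 0.81 (0.06), and 0 were lower past it. Among all genes 2.31% were higher and 1.95% lower past the filter in ΔCdk Rb-HA MEFs, and 0.539% and 0.484% in WT Rb-HA MEFs. The 5 higher targets were Mmp10, at 1.58 (0.06), Spp1, at 1.35 (0.07), Hmox1, at 0.96 (0.08), Mmp13, at 0.94 (0.04), and Plau, at 0.70 (0.06). Hmox1 encodes heme oxygenase and, like others of the list, answers to factors besides AP-1. The 2 lower genes were Mmp9, at -0.83 (0.06), and Tgfb1, at -0.72 (0.09). Relative to WT Rb-HA MEFs, Spp1 was higher with ΔCdk Rb-HA, at 1.10 (0.08), as was Mmp10, at 0.77 (0.05), and Mmp9 was lower, at -0.83 (0.06). Among the macrophage markers Lyz2 was higher past the filter in this last comparison, at 0.78, Lyzs was at 0.45 and Cd14 at 0.38. Of the 15 marker symbols 11 were above 0 and 4 below, among the latter C1qb at -0.33 and Tyrobp at -0.25. Without the lysozymes the median of 12 markers was 0.05, and 0 passed the filter. Summed marker intensity was 5801.2 with WT Rb-HA and 7275.9 with ΔCdk Rb-HA, or 1896.5 and 2086.3 without the lysozymes, and its part in these ratios was not tested. Over the same arrays Fos, Fosb, Jun and Junb had ratios between -0.20 and 0.42. Protein levels and phosphorylation of AP-1 were not measured by these arrays.

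**Figure D3:**
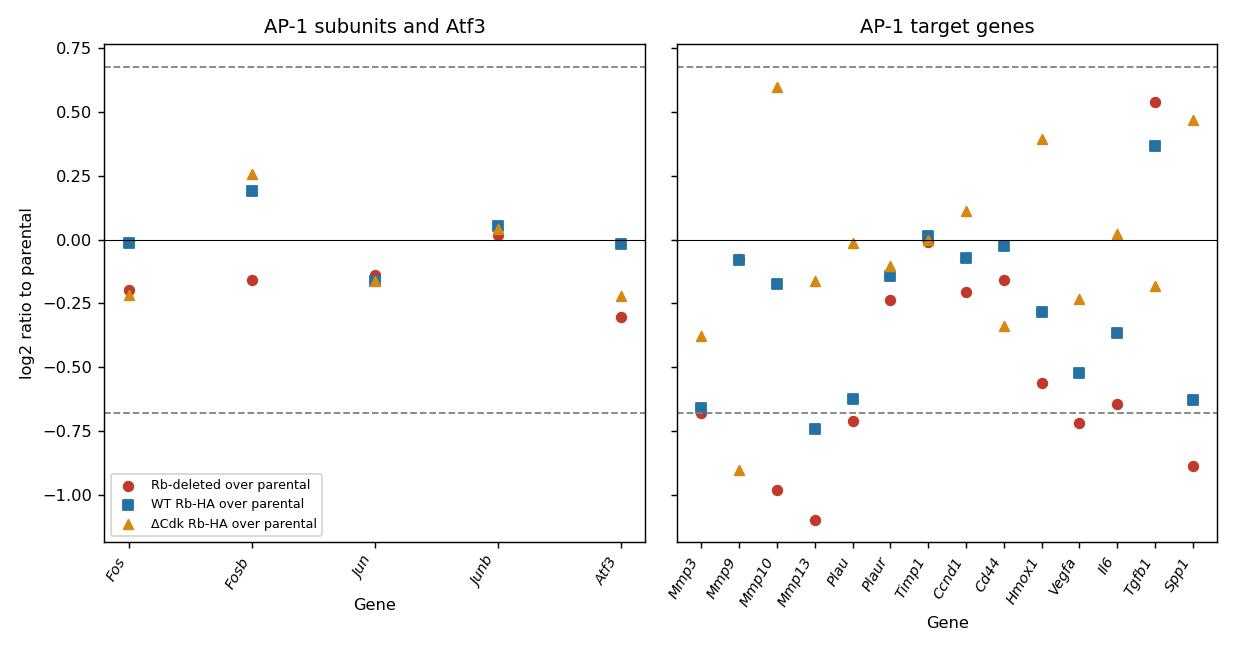
Log2 ratios to parental (vertical axis) of the AP-1 subunits and Atf3 on the left and of the 14 detected AP-1 target genes on the right, for MEFs with Rb deleted (circles), with WT Rb-HA (squares) and with ΔCdk Rb-HA (triangles), with dashed lines at 1.6-fold (0.68). Fos, Fosb, Jun and Junb stay between -0.22 and 0.26 and Atf3 reaches -0.30, while the targets, a longer list, reach from -1.10 to 0.60.

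Genes of the Myc network and Myc targets stayed inside the filter relative to parental, as did most genes analysed. In these comparisons 0.888% to 3.3% of all genes passed it in 1 direction. Of the network 6 genes were detected, among them Max, the obligate partner of Myc, which was at -0.05 (0.12), 0.20 (0.11) and 0.46 (0.11) with Rb deleted, with WT Rb-HA and with ΔCdk Rb-HA. Mycl1, a Myc paralog, was at 0.46 (0.13) in ΔCdk Rb-HA MEFs, and Mxi1, a Max partner that opposes Myc, at -0.42 (0.11) in Rb-deleted MEFs. Max and Mycl1 were thus highest on the array where Myc was lowest.

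Of 22 detected Myc targets 0 passed 1.6-fold relative to parental on any array, and their median log2 ratios were 0.18, 0.07 and 0.01. A count of 0 is near the background, since 0.888% to 3.3% of all genes passed in 1 direction. Cad, which starts pyrimidine synthesis and is also an E2F target, had intensities of 225 on the parental, 302 on the Rb-deleted, 255 on the WT Rb-HA and 186 on the ΔCdk Rb-HA array. It was the only target past the filter between treated arrays, with -0.74 (0.07) in ΔCdk Rb-HA compared to Rb-deleted MEFs. In that comparison 1.95% of all genes were lower past the filter. Polr1b, a subunit of RNA polymerase I, was at 0.32 (0.09), -0.11 (0.09) and -0.27 (0.12) relative to parental. Nol5a, a nucleolar protein, was at 0.32 (0.09), 0.50 (0.06) and 0.34 (0.06).

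Atf4-dependent stress genes, which are induced with Atf3 in amino acid and endoplasmic reticulum stress, gave 13 detected members. Lower than parental past the filter were 2 genes in Rb-deleted, 1 in WT Rb-HA and 1 in ΔCdk Rb-HA MEFs, and 0 were higher. In these comparisons 2.98%, 2.46% and 3.3% of all genes were lower past the filter. Slc7a11, the cystine transporter, was lower on all 3 arrays, at -0.73 (0.08), -1.01 (0.08) and -0.88 (0.08). Nupr1, a stress-induced nuclear protein, was lower in Rb-deleted MEFs, at -0.98 (0.07), and higher with ΔCdk Rb-HA than with Rb deleted, at 0.86 (0.05). Phgdh, of serine synthesis, was at 0.49 (0.06) in ΔCdk Rb-HA MEFs compared to parental.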

How the data were processed

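RNA from 4 MEF cultures was hybridised to Illumina MouseWG-6 v2.0 BeadChips. The authors deposited for each of 45281 probes the bead-averaged intensity without normalization between arrays, a detection p-value, the bead standard error, also as an intensity, and the number of beads, with a median of 44. Software that made these values is not given in the sources used here. The array labels gave the groups.

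Intensities were background corrected with limma 3.58.1 in R 4.3.3 (normexp, background inferred from the detection p-values, offset 16), quantile normalized across arrays, then log2 transformed. Genes with a probe detected at p below 0.01 on at least 1 array were kept, each represented by its brightest probe. Bead standard errors were carried through each array's mapping to the log2 scale. Dates in place of 40 symbols were restored for 34 from RefSeq. Python 3.11.15, numpy 2.4.6 and pandas 2.3.3 were used. The calculation was checked on simulated data.

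The members, gene lists and alternatives were chosen with earlier results of these data known. Genes named were Rb1, all members, the 3 nearest in pattern to each of the 2 widest members, and the 3 widest of each list. Other genes past 1.6-fold were named after their values were seen. The number of arrays limits the precision.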

Additional observations from a re-analysis of the deposited data

Results flagged for a closer look

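With WT Rb-HA and ΔCdk Rb-HA, 3 of the 8 genes lay on opposite sides of the Rb-deleted level. The share of all genes that did so was not computed, so this count is not shown to be particular to these genes. For Fos in ΔCdk Rb-HA MEFs and Egr1 in WT Rb-HA MEFs the ratio lay inside its bead error, 0.05 and 0.07. The difference between the re-expressed forms was -0.63 on the log2 scale for Myc, -0.20 for Fos and -0.15 for Egr1, each lower with ΔCdk Rb-HA, and was not tested, since each form had 1 array. Relative to Rb-deleted MEFs, Myc was at 0.14 and -0.49, Fos at 0.18 and -0.02, and Egr1 at 0.02 and -0.12. Of these 6 ratios, those of Myc and Egr1 in ΔCdk Rb-HA MEFs and of Fos in WT Rb-HA MEFs exceeded 2 bead standard errors.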

How the results depend on the processing

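No paired analysis was possible because each condition had 1 array. The count of 0 genes past 1.6-fold held in all 6 comparisons without background correction, with an offset of 50 and with median scaling. The other detection limits, the mean of detected probes, 2-fold and a requirement of 2 bead standard errors were also run, but could not have raised this count. The Myc ratio of ΔCdk Rb-HA to WT Rb-HA ranged from -0.63 to -0.44, nearest 0 with an offset of 50. With median scaling the median over the 8 genes in ΔCdk Rb-HA compared to Rb-deleted MEFs was -0.0647 in place of 0.0019, and all 3 Junb ratios to parental turned negative (lowest -0.09); the cause was not tested. AP-1 targets lower past 1.6-fold in WT Rb-HA MEFs relative to parental numbered 3 with median scaling and 0 with the mean of detected probes. At 2-fold, lower AP-1 targets relative to parental fell to 1 in Rb-deleted, 0 in WT Rb-HA and 0 in ΔCdk Rb-HA MEFs. Relative to Rb-deleted MEFs, higher targets at 2-fold fell to 0 in WT Rb-HA and 2 in ΔCdk Rb-HA MEFs, with 0 lower, and for ΔCdk Rb-HA relative to WT Rb-HA to 1 higher and 0 lower, as a stricter fold must give. Higher and lower counts over all genes at 1.6-fold varied with background correction, offset, scaling and detection filter, relative to parental from 124 to 270 and 215 to 422 (Rb-deleted), 46 to 113 and 174 to 378 (WT Rb-HA), and 151 to 325 and 234 to 513 (ΔCdk Rb-HA). Relative to Rb-deleted MEFs they were 32 to 68 and 23 to 70 (WT Rb-HA), and 138 to 293 and 109 to 285 (ΔCdk Rb-HA), and for ΔCdk Rb-HA relative to WT Rb-HA 52 to 106 and 62 to 128. In ΔCdk Rb-HA compared to parental MEFs, median scaling gave 255 higher and 513 lower genes in place of 325 and 416. In the other lists, 1 gene often decided a count. Without background correction or with an offset of 50, 0 Myc targets were lower in ΔCdk Rb-HA compared to Rb-deleted MEFs and 0 upstream genes lower compared to WT Rb-HA, and with an offset of 50 no wider-list immediate early gene was higher than in Rb-deleted MEFs. Dim genes such as Atf3 are limited most by signal over background.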
